A study of Mus musculus with 4 samples.

Results

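Genes that fold, move and dispose of proteins in the endoplasmic reticulum (ER) were examined in LPMs (large peritoneal macrophages), which reside in the abdominal serous cavity. The members were 37 genes listed by symbol, of which 36 stood in a table of 18364 genes. *Asns* was not analysed here. The 36 genes were read as 15 chaperones and folding enzymes, 3 stress sensors and their transcription factors, 5 genes of the ATF4 arm, 7 genes of ER-associated degradation and 6 genes of the translocon. RNA was taken in bulk from LPMs of 8-week-old C57BL/6 mice, with 2 libraries labelled WT and 2 labelled Rxra-KO (genotype Rxra-/-). In the methods of the study, the knockout mice carry *Rxra* fl/fl with Cre expressed from the *Lyz2* (LysM) locus, which is active in other myeloid cells too, and the controls are *Rxra* fl/fl without Cre. The comparison asks how loss of RXRα, a nuclear receptor that pairs with other receptors to control transcription, changes LPM transcripts.

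The lumen of the ER is where secreted, lysosomal and membrane proteins are folded. When unfolded proteins build up, the sensors IRE1α (*Ern1*), ATF6 and PERK are released from the chaperone BiP (*Hspa5*) and start the unfolded protein response. IRE1α splices the *Xbp1* message, ATF6 is cut in the Golgi to free a transcription factor, and PERK slows translation while favouring ATF4. XBP1 and ATF6 raise chaperone and degradation genes, and ATF4 raises *Ddit3*, *Trib3*, *Chac1* and *Ppp1r15a*. In resident macrophages, the same machinery folds scavenger receptors, lysosomal enzymes and secreted proteins.

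The libraries held 652542 and 947372 reads for WT and 629030 and 1047021 for Rxra-KO, recovered from the deposited normalised read signal. Values below are that signal, and a single read was worth 0.993 to 1.51 units. A gene was called at a limma adjusted *p* under 0.05 over all genes with a log2 fold change of 0.6 or more in either direction on the log2(value + 1) scale. *Rxra* was counted at 20 and 28 reads in WT, below the 33 and 77 reads of the libraries labelled Rxra-KO (log2 fold change 0.99, limma adjusted *p* = 0.183). The targeted gene thus went against the label, though reads outside the deleted exons cannot be told apart in gene totals, and every direction below is between libraries as labelled. *Lyz2* fell by 1.03 on the log2 scale. By the methods, Cre is expressed from this locus in the knockout mice alone. An effect of the Cre allele on *Lyz2* and one of RXRα loss therefore cannot be told apart. Of 16 LPM markers, none was at 0 in any library, and 12 were called, all lower in Rxra-KO. Their summed value was 47755 and 47790 in WT against 24734 and 26436 in Rxra-KO. The study left out RNA-seq samples that did not cluster with their group.

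Promoter sequence from RefSeq (build GRCm38.p6) was used for 30 of the 36 members and was read over the 250 bases before the start site. The promoters of *Manf*, *Hyou1*, *Atf6*, *Derl1*, *Sec61a1* and *Ssr2* were not analysed here. The ER stress response element (ERSE), the site through which ATF6 and XBP1 are known to act, was searched on both strands as CCAAT and CCACG with 9 bases between them. Only this exact form was searched, so near matches were neither counted nor marked. It was found in 9 members (*Hspa5*, *Calr*, *Canx*, *Hsp90b1*, *Pdia6*, *Dnajc3*, *Creld2*, *Syvn1* and *Derl3*). With these 9 included, it was found in 35 of 27025 genes with a promoter sequence (0.130%). The members were listed as genes of a response known to run through ATF6 and XBP1, so this contrast is not a test. The *Hspa5* promoter is shown whole because BiP is the chaperone most often used to read the response. It lies at chr2:34771840-34772089 on the plus strand, and the capitals mark the exact ERSE match, from 65 to 47 bases upstream of the start.
*Hspa5*: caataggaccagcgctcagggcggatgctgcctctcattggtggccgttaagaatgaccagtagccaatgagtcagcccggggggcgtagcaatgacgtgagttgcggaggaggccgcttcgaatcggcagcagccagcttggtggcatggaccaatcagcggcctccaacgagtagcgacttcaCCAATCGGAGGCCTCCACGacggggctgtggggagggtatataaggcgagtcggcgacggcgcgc

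The element of 6 other members is shown with 10 bases on either side, to let the fixed ends and the variable middle be compared next to their expression values. *Hsp90b1* held it at 2 places, at chr10:86705628-86705666 (minus strand) and chr10:86705523-86705561 (plus strand). The others lay at chr8:84847065-84847103 for *Calr* (plus), chr11:50325790-50325828 for *Canx* (minus), chr12:17266481-17266519 for *Pdia6* (plus), chr14:118937817-118937855 for *Dnajc3* (plus) and chr19:6046522-6046560 for *Syvn1* (plus), with the printed strand in brackets. *Herpud1* had the shorter ERSE-II, searched as ATTGG and CCACG with 1 base between them, at chr8:94386367-94386397 (plus), a motif in 10 of the 27025 genes (0.0370%). Both motifs end in CCACG. Capitals mark the motif.
*Hsp90b1*, distal: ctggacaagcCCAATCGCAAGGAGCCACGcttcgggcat
*Hsp90b1*, proximal: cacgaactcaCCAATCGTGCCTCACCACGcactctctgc
*Calr*: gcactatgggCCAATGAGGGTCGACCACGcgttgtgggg
*Canx*: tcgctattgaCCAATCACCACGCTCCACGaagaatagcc
*Pdia6*: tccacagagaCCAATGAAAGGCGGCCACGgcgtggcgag
*Dnajc3*: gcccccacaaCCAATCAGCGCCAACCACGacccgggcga
*Syvn1*: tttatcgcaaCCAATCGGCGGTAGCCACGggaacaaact
*Herpud1*, ERSE-II: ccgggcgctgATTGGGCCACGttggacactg

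No member promoter held the unfolded protein response element core TGACGTGG (163 genes, 0.603%) in this window. The ATF4 site was searched in 1 form only, TGATG and AAT with 1 base between them (246 genes, 0.910%), which no member promoter held. Other forms of the ATF4 site were not searched. A match of letters is not a site shown to be bound. Of the 35 genes with an ERSE, 23 were in the table and 0 were called by limma, edgeR, DESeq2 or voom, with a limma unadjusted *p* under 0.05 for 1 of them (4.35%). Over all genes, 2.29% were called and 10.1% had such a *p*, so a count of 0 in 23 stands near the share over all depths. A mean of at least 100 reads was reached by 8 of the 23, and at that depth 13.7% of all genes were called. Without *Derl3*, which had too few reads for a fold, the lowest log2 fold change among the members with an ERSE was -0.77, for *Syvn1*, and the highest was 0.46, for *Hspa5*. The median of these 8 was 0.017, beside 0.020 for all genes.

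*Derl1* was the single member that passed the call rule. Over all genes, limma called 421 (2.29%), with 243 higher and 178 lower (0.969%), so 1 call in 36 members stood near the share over all depths. The median of mean reads was 81.1 for the members and 9.25 for all genes, so 2.29% understates the share at their depth. An unadjusted *p* under 0.05 was given to 10.1% of all genes and, among the members, to *Derl1* alone. Of the 35 members with a fold, 18 were above 0 and 17 below, and their median log2 fold change was 0.035 (-0.045 to 0.11 when 1 library was left out), beside 0.020 over all genes. In bulk RNA, fewer cells of a type and less RNA per cell cannot be told apart. The median absolute log2 fold change was 0.38 for these members and 0.40 for all genes. At the depth where the calls were most frequent, a mean of at least 100 reads, limma called 193 of 1405 genes (13.7%) and 0 of the 14 members. By edgeR, DESeq2 and voom on the recovered reads, 0 of the 14 were called too. A limma unadjusted *p* under 0.05 was given to 28.9% of the 1405 genes and to none of these 14. The 14 ranged from -0.40 to 0.46, with a median absolute log2 fold change of 0.19 beside 0.27 for the 1405 genes. The other depths went the other way. At 10 to 100 reads the same median was 0.45 for the members beside 0.34 for all genes. Below 10 reads it was 0.72 for the 6 members with a fold beside 0.50 for all genes. At 10 to 100 reads, 2.87% of genes and 1 of 15 members were called, and below 10 reads 0.147% of genes and 0 of 7 members. Values of the 2 groups did not overlap for 17 members (47.2%), with 10 higher and 7 lower in Rxra-KO, beside 38.1% of all genes. Among all genes this share rose with depth, from 33.6% below 10 reads to 40.6% at 10 to 100 and 55.2% at a mean of at least 100. Among the members it was 42.9%, 53.3% and 42.9% in the same order.

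**Figure D1:**
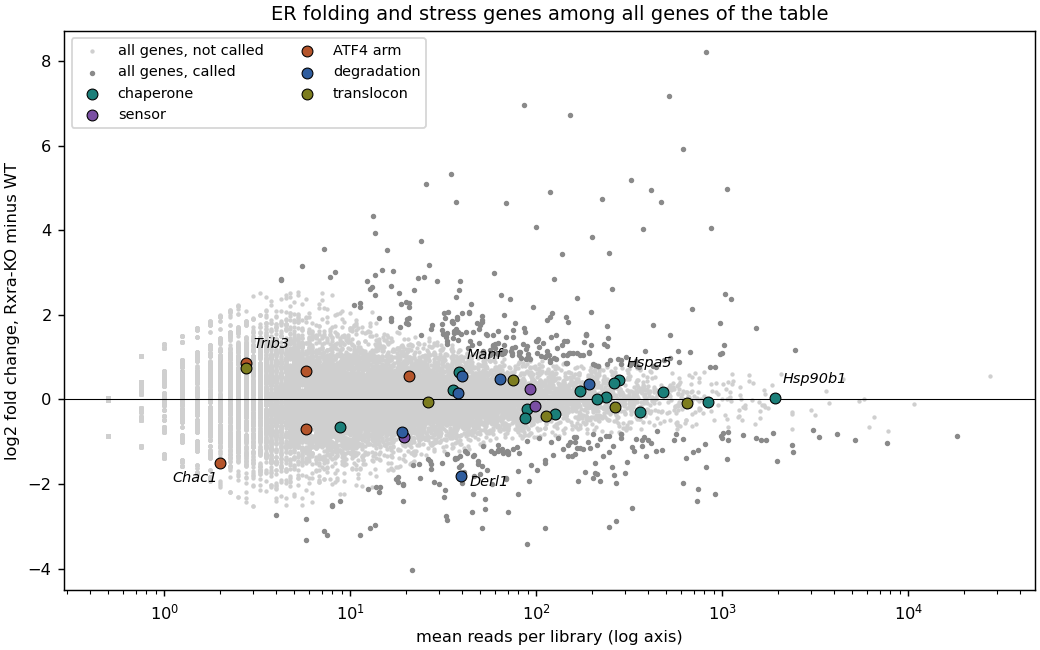
Log2 fold change of the libraries labelled Rxra-KO against WT (y axis) by mean reads per library (x axis, log scale) for the 18364 genes of the table (small grey points, darker when called) and the 35 members with a fold (large points, coloured by class). The members lie along the bulk of the genes, *Derl1* lies lower at -1.80, and the 14 members with a mean of at least 100 reads stay between -0.40 and 0.46.

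Reads of the 36 members made up 0.931% and 0.758% of all reads in the WT libraries and 0.879% and 0.848% in the Rxra-KO libraries. Both Rxra-KO shares lay between those of the WT libraries. The spread was wider in WT, where 25 of 36 members had a higher value in replicate 1 than in replicate 2 (median log2 difference 0.31), against 16 in Rxra-KO (median -0.10). For 19 of 36 members, the mean absolute difference between replicates was larger than the difference between groups. Replicate 1 was also the shallower library of each group, and the part of depth in this spread was not tested.

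Levels between genes were compared per kilobase of the principal GENCODE transcript, as value per kb averaged over the 4 libraries. *Hsp90b1*, the ER form of HSP90 (GRP94), stood first at 835 per kb, followed by *Pdia6* at 274, *Sec61a1* at 252, *Sec61b* at 239 and *Canx* at 238. *Hspa5* stood at 96.9 per kb. In the ATF4 arm, *Ddit3* stood at 28.8 per kb, *Atf4* at 4.17, *Ppp1r15a* at 2.80, *Chac1* at 2.03 and *Trib3* at 1.94 per kb. *Sec61a1* and *Sec61b*, which encode subunits of 1 complex, differed by less than their spread between libraries, at 220 to 294 and 153 to 301 per kb. *Sec61g*, which encodes another subunit of it, stood far lower, at 17.4 per kb. Of the 31-base words of *Sec61b*, 54.5% also occurred in other genes, and of those of *Sec61g* 21.3%, so both levels are uncertain. Of the *Ssr* genes, which share another complex, *Ssr1* stood at 34.97 and *Ssr3* at 32.4 per kb, but *Ssr2* at 3.29. Levels per kb thus did not match across the subunits of either complex. The reference the authors counted against was not settled, so transcript lengths may not be those counted.

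Among the general chaperones, *Hspa5*, which encodes the HSP70 of the ER lumen, had values of 366 and 234 in WT against 505 and 319 in Rxra-KO. The groups overlapped, since the deeper Rxra-KO library lay below the higher WT library. The log2 fold change was 0.46 (95% interval -0.0047 to 0.92), the largest among members with a mean of at least 100 reads, with a limma adjusted *p* = 0.501. It ranged from 0.13 to 0.79 when 1 library was left out. *Hsp90b1* had 2458 and 2202 in WT against 2229 and 2547 in Rxra-KO, so the highest and lowest libraries were the second Rxra-KO and the second WT library. Its fold change was close to 1 (log2 0.035, interval -0.39 to 0.46). *Hyou1*, the nucleotide exchange factor that resets BiP, had 7 and 15 reads in WT against 8 and 5 in Rxra-KO, which leaves a wide interval of -1.91 to 0.61.

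The lectin chaperones hold glycoproteins until they are folded. *Canx*, the membrane-bound calnexin, had values of 1059 and 1030 in WT against 913 and 1081 in Rxra-KO, which overlap. Soluble calreticulin, *Calr*, had 167 and 177 in WT against 124 and 148 in Rxra-KO, so both Rxra-KO libraries were lower. The log2 difference of *Calr* was -0.34 (standard error, SE, 0.26, limma adjusted *p* = 0.761). *Pdia3*, the disulfide isomerase that works with both lectins, had 187 and 206 in WT and higher values of 227 and 222 in both Rxra-KO libraries (log2 0.19, limma adjusted *p* = 0.909).

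Other disulfide isomerases, which form and rearrange disulfide bonds, differed in sign and none was called. *P4hb* had 514 and 479 in WT against 427 and 380 in Rxra-KO, lower in both Rxra-KO libraries by 0.30 on the log2 scale (SE 0.22, limma adjusted *p* = 0.753). *Pdia6* had 623 and 505 in WT against 632 and 628 in Rxra-KO, and the second WT library was the one that stood apart (log2 0.17). *Pdia4* had the lowest level per kb of the group, 18.1, with values of 37.1 and 42.9 against 41.4 and 52.1 and overlapping groups.

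The J-domain co-chaperones that recruit BiP to its clients also differed in sign. *Dnajc3*, which additionally inhibits PERK, had 317 and 253 in WT against 386 and 351 in Rxra-KO, both Rxra-KO libraries being higher (log2 0.38, interval -0.081 to 0.83, limma adjusted *p* = 0.639). *Dnajb9*, a known XBP1 target, had 148 and 97.1 in WT against 105 and 99.8 in Rxra-KO, so the first WT library alone was high. Of its 31-base words, 11.3% also occurred in *Gm6568*, so its reads could have been shared in part. *Dnajb11* had 346 and 238 in WT against 302 and 298 in Rxra-KO, and both Rxra-KO libraries lay between the WT libraries. *Sdf2l1*, a partner of the *Dnajb11* product, had 149 and 105 in WT against 86.6 and 97.8 in Rxra-KO, without overlap (log2 -0.44, limma adjusted *p* = 0.671).

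*Manf* and *Creld2* encode ER-resident proteins that are secreted under stress. *Manf* had 38.6 and 36.3 in WT against 67.0 and 52.1 in Rxra-KO, and the groups did not overlap. At 0.64, it had the highest log2 fold change of the class, with an SE of 0.35 and a limma adjusted *p* = 0.559. *Creld2* had 372 and 185 in WT against 314 and 219 in Rxra-KO, for which the difference was -0.00028 in log2 units with an interval from -0.48 to 0.48. Its WT libraries were the farthest apart of the 15 chaperone genes, by 1.003 on the log2 scale. Over the class, 8 genes were above 0 and 7 below, none was called, and the median was 0.035 (-0.092 to 0.11 when 1 library was left out).

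For the 10 chaperone genes with a mean of at least 100 reads, the 95% intervals of limma ran at the widest from a 1.81-fold decrease, for *Calr*, to a 1.89-fold increase, for *Hspa5*. Larger changes in these 10 genes lie outside their intervals, but the intervals rest on a spread shared across genes. They can be narrower than a gene's own spread allows. *Creld2* was given an SE of 0.24, while its replicates lay 1.003 apart in WT and 0.52 apart in Rxra-KO on the log2 scale. Larger changes were therefore not excluded, and changes within the intervals were not resolved with 2 libraries a group.

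**Figure D2:**
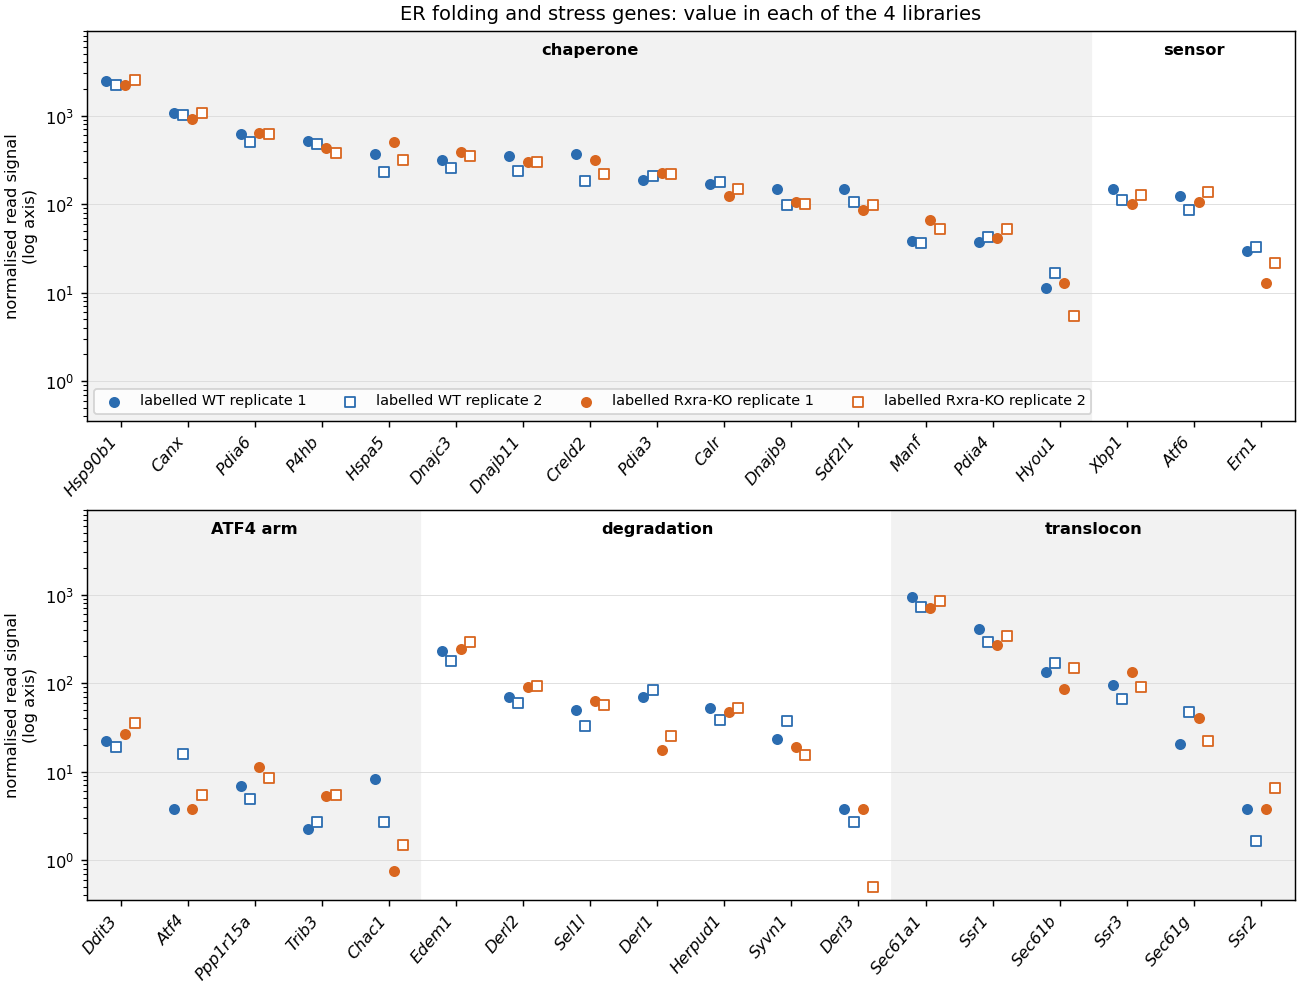
Normalised read signal (y axis, log scale) of each member in each of the 4 libraries, by class, with WT in blue, Rxra-KO in orange, replicate 1 as filled circles and replicate 2 as open squares. A gene with 0 reads is drawn at the 0.5 read that the deposited values add. For *Derl1* the WT libraries stand at 68.9 and 83.0 and the Rxra-KO libraries at 17.3 and 25.3.

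Of the sensors and their factors, *Xbp1* had values of 148 and 110 in WT against 102 and 128 in Rxra-KO, with overlapping groups (log2 -0.16, limma adjusted *p* = 0.944). Gene totals do not separate the spliced form of *Xbp1* from the unspliced one. *Atf6* had 123 and 85.2 against 106 and 139, also overlapping (log2 0.24). *Ern1*, which encodes the IRE1α kinase and nuclease, had 19 and 30 reads in WT against 8 and 21 in Rxra-KO, or values of 29.5 and 33.1 against 12.8 and 21.4. Both Rxra-KO libraries were lower, by 0.88 on the log2 scale with an interval from -1.80 to 0.043 (limma adjusted *p* = 0.533).

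In the ATF4 arm, *Atf4* itself had 2 and 14 reads in WT against 2 and 5 in Rxra-KO, so the second WT library alone was high. ATF4 is controlled largely at translation, which RNA levels do not show. *Ddit3*, which encodes the pro-apoptotic factor CHOP, had values of 21.95 and 18.98 in WT against 26.3 and 35.3 in Rxra-KO, higher in both Rxra-KO libraries (log2 0.56, SE 0.45, limma adjusted *p* = 0.785). *Ppp1r15a*, the phosphatase subunit that restores translation, had 4 and 4 reads in WT against 7 and 8 in Rxra-KO. The groups were apart, with an interval from -0.75 to 2.09 around a log2 fold change of 0.67.

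*Trib3*, a pseudokinase induced by CHOP, had 1 and 2 reads in WT against 3 and 5 in Rxra-KO, a ratio of 2.53 of the summed reads per library size (95% exact interval 0.606 to 14.8, counting error only). *Chac1*, a glutathione-degrading enzyme, had 5 and 2 reads in WT against 0 and 1 in Rxra-KO, a ratio of 0.135 (interval 0.0030 to 1.053). At a mean of 2 to 5.75 reads, 4 of the 5 genes of this arm had SEs of 0.72 to 0.80, and changes of the sizes above were not resolved at this depth. None was called, 3 were above 0 and the class median was 0.56, which stayed 0.56 with *Trib3* and *Chac1* at their read ratios and was 0.35 to 0.66 when 1 library was left out.

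Degradation genes send misfolded proteins back to the cytosol for the proteasome. *Derl1*, one of 3 derlins that form part of the channel through which they leave, had 45 and 76 reads in WT against 11 and 25 in Rxra-KO. The values were 68.9 and 83.0 in WT (mean 75.9 ± 9.97, SD, n = 2) and 17.3 and 25.3 in Rxra-KO (mean 21.3 ± 5.66, SD, n = 2). Both Rxra-KO libraries were well below both WT libraries, a 3.49-fold lower level on the log2(value + 1) scale. On the log2 scale *Derl1* fell by 1.80, with an SE of 0.38 (interval -2.54 to -1.06, limma adjusted *p* = 0.00031). The call ended when limma was fitted without a mean-variance trend (adjusted *p* = 0.472) and without the first Rxra-KO library (adjusted *p* = 0.0817). *Derl1* moved in the same direction as the LPM markers given above, whose part in its change was not tested.

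*Derl2* had 70.4 and 60.2 in WT against 89.6 and 93.9 in Rxra-KO, above WT in both libraries but not called (log2 0.49, SE 0.31, limma adjusted *p* = 0.651). *Derl3* was at the floor of 3 reads a library in both groups, with 2 and 2 reads in WT against 2 and 0 in Rxra-KO, and no fold is given. *Derl1* therefore made up 48.4% (95% exact interval 37.9 to 59.0) and 57.1% (48.3 to 65.7) of derlin reads in the WT libraries. In the Rxra-KO libraries, the share was 15.3% (7.88 to 25.7) and 21.01% (14.1 to 29.4). The intervals of the 2 groups did not meet in any pair of libraries, and they cover counting error only. Per kilobase, *Derl1* was above *Derl2* in both WT libraries (21.7 and 26.1 against 19.2 and 16.4) and below it in both Rxra-KO libraries (5.45 and 7.98 against 24.4 and 25.6). Of the 31-base words of the *Derl1* principal transcript, 9.09% also occurred in a transcript of *Gm35638*, so part of its reads could have been shared, and its exons overlapped no other gene.

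**Figure D3:**
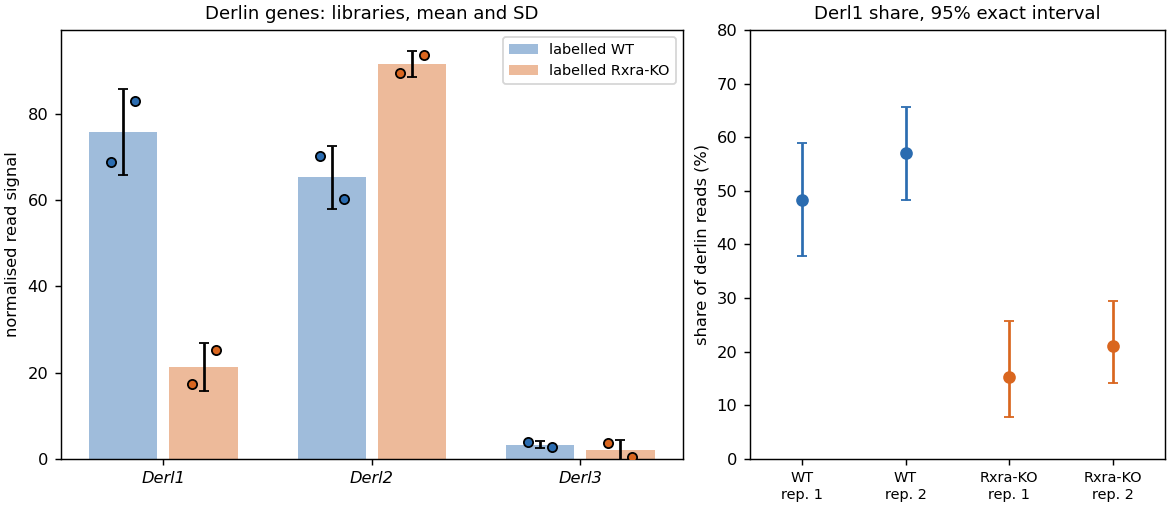
Left, normalised read signal of *Derl1*, *Derl2* and *Derl3* in the WT and Rxra-KO libraries (points), with the mean (bars) and SD over 2 libraries (error bars). Right, *Derl1* reads as a percent of all derlin reads in each library with the 95% exact binomial interval. *Derl1* went from 48.4% and 57.1% in WT to 15.3% and 21.01% in Rxra-KO.

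Genes of the ubiquitin ligase complex differed in sign, and none was called. *Syvn1*, the ligase HRD1, had 23.5 and 37.4 in WT against 18.8 and 15.4 in Rxra-KO, lower in both Rxra-KO libraries (log2 -0.77, SE 0.47, limma adjusted *p* = 0.634). *Sel1l*, the adaptor that stabilises it, had 49.2 and 33.1 in WT against 62.5 and 56.1 in Rxra-KO, higher in both (log2 0.54, limma adjusted *p* = 0.671). *Herpud1*, a scaffold of the same complex and a sensitive target of the response, had 52.2 and 38.5 in WT against 47.4 and 52.1 in Rxra-KO, which overlap. *Edem1*, which marks misfolded glycoproteins for removal, had 231 and 180 in WT against 243 and 288 in Rxra-KO, above WT in both (log2 0.38, limma adjusted *p* = 0.671). Of the 6 degradation genes with a fold, 1 was called lower, 4 were above 0, and the median was 0.26 (0.063 to 0.46 when 1 library was left out).

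The translocon carries new chains into the ER. *Sec61a1*, its pore subunit, had 932 and 720 in WT against 698 and 846 in Rxra-KO, with overlapping groups (log2 -0.092, interval -0.52 to 0.34). *Sec61b* had 132 and 170 against 86.6 and 149, and the first Rxra-KO library alone was low (log2 -0.40). *Sec61g* had 20.4 and 47.2 against 39.9 and 22.3, so each group held a high and a low library. Short words of *Sec61b* (54.5%) and *Sec61g* (21.3%) also occurred in other genes, mostly *Gm10320* and *Gm10177*, and their values are uncertain for that reason.

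The translocon-associated protein complex helps some chains through the pore. *Ssr1* had 403 and 293 in WT against 267 and 341 in Rxra-KO (log2 -0.19, limma adjusted *p* = 0.902). *Ssr3* had 94.6 and 66.7 in WT against 132 and 89.9 in Rxra-KO, with the first Rxra-KO library alone above WT (log2 0.45, limma adjusted *p* = 0.677). *Ssr2* had 2 and 1 reads against 2 and 6, a ratio of 2.53 (exact interval 0.606 to 14.8). None of the 6 translocon genes had groups that did not overlap, none was called, and the median was -0.075. Exons of *Sec61a1*, *Hsp90b1*, *Ssr2*, *Derl2* and *Manf* overlap another gene on the opposite strand by more than 100 bases, and the library kit does not record strand.

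**Figure D4:**
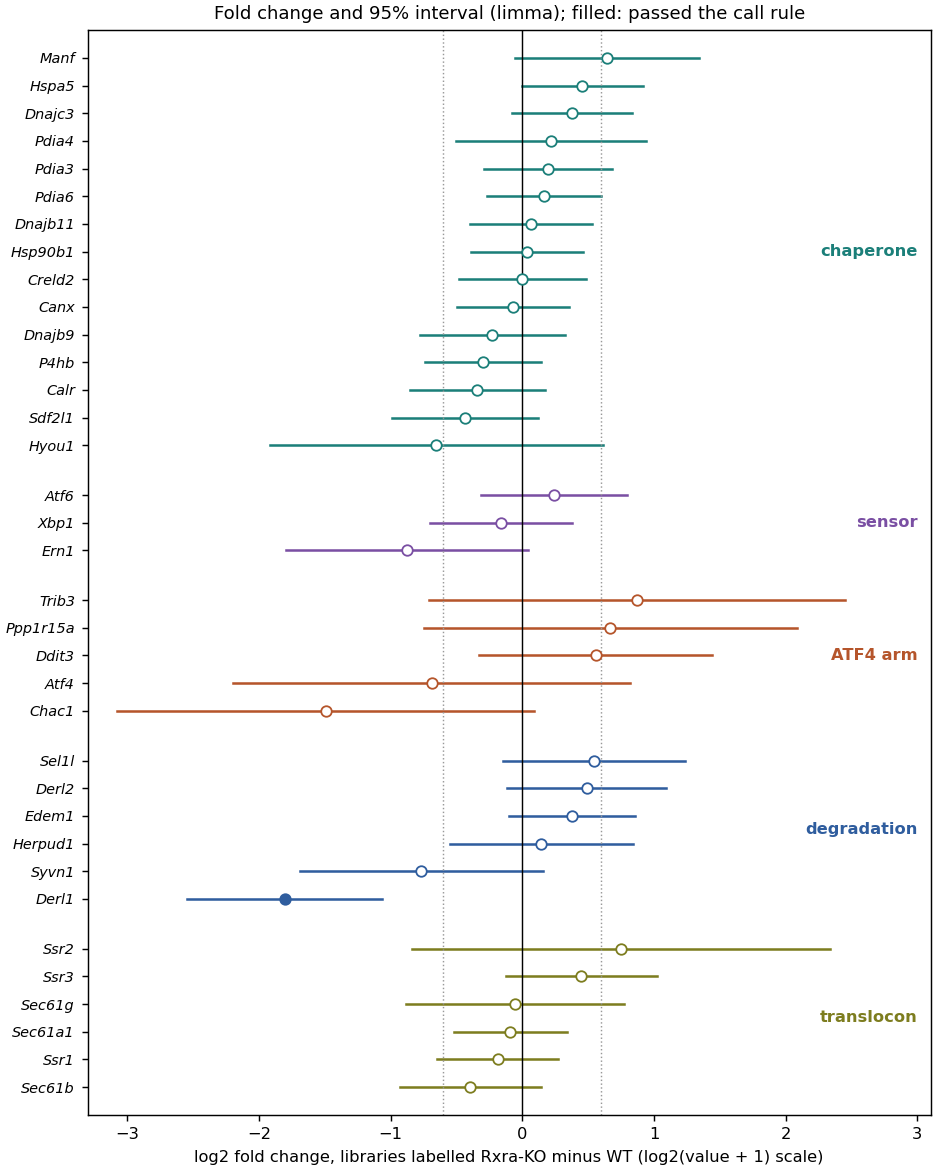
Log2 fold change of the libraries labelled Rxra-KO against WT (points) with the 95% interval of limma (bars) for 35 members by class, filled where called, with dotted lines at -0.6 and 0.6. *Derl3* is left out because both groups were at the floor. The *Derl1* interval, from -2.54 to -1.06, is the single one that does not reach 0.

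Another 8 lists covered 180 genes of the same processes, and 2 of the genes were called, both higher in Rxra-KO (1.11%, beside 2.29% of all genes, and 1.32% called higher). The median of mean reads was 37.5 for these 180 and 9.25 for all genes, so 2.29% understates the share at their depth. At a mean of at least 100 reads, which 39 of the 180 had, 13.7% of genes were called. The share was 2.87% at 10 to 100 reads and 0.147% below 10, where 37 of the 180 lay. *Dnajc10*, the ER reductase ERdj5 that opens disulfides of degradation substrates, had 38 and 29 reads in WT against 77 and 106 in Rxra-KO. Its mean value was 45.1 ± 18.6 (SD, n = 2) in WT against 111 ± 7.72 (SD, n = 2) in Rxra-KO, which is 1.34 higher on the log2 scale (SE 0.32, limma adjusted *p* = 0.00261). *Camlg*, listed in the table as Caml, a receptor for tail-anchored proteins at the ER membrane, had 25 and 77 reads in WT against 83 and 112 in Rxra-KO. The log2 fold change of *Camlg* was 1.04 (SE 0.30, limma adjusted *p* = 0.0349). It was 0.49 without the first WT library (adjusted *p* = 0.754) and 1.59 without the second (adjusted *p* = 0.00287), so its size rested on which WT library was used, and the call also ended without either Rxra-KO library (adjusted *p* = 0.588 and 0.229). For *Dnajc10* the call ended without the second WT library (log2 0.92, adjusted *p* = 0.317) and without either Rxra-KO library (adjusted *p* = 0.258 and 0.0713). Both genes were higher in both Rxra-KO libraries, but *Dnajc10* was called in 10 and *Camlg* in 7 of 15 alternative fits. These counts include a fit with no minimum value for a gene, which repeats the main fit.

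Median log2 fold changes of these lists lay between -0.092 for N-glycosylation and 0.22 for other degradation genes. Besides *Dnajc10*, the other 25 folding enzymes held no call, and *Erp29* had their highest mean value, at 1341 ± 51.3 (SD, n = 2) in WT and 1330 ± 395 (SD, n = 2) in Rxra-KO. N-glycosylation (17 genes, with *Magt1* at the highest mean read count), other sensors and stress factors (15, *Tmbim6*), other ATF4 targets and amino acid genes (21, *Nars*), other degradation genes (23, *Ubxn4*), ER to Golgi transport (28, *Tmed3*) and cytosolic and mitochondrial heat shock (21, *Hspa8*) each held 0 calls by limma, edgeR, DESeq2 and voom. These 6 lists, grouped here because they held no call, had 11 of 125 genes with a limma unadjusted *p* under 0.05 (8.80%, beside 10.1% of all genes). All 8 lists together had 19 of 180 (10.6%). *Ssr4*, another subunit of the translocon-associated complex, named here after its values were seen, had 102 and 146 reads in WT against 54 and 86 in Rxra-KO. At a log2 difference of -0.90 it narrowly missed the rule (limma adjusted *p* = 0.0567).

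**Figure D5:**
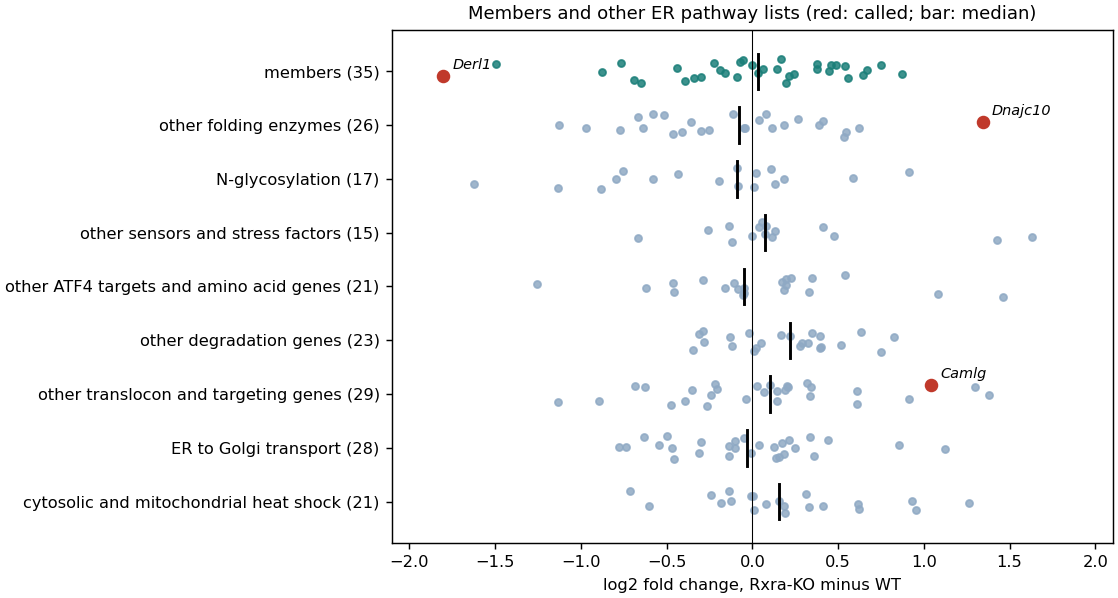
Log2 fold change of the libraries labelled Rxra-KO against WT for the 35 members with a fold and for the genes of 8 other ER pathway lists (points, number of genes in brackets), with the median of each list as a black bar and called genes in red. The called genes are *Derl1* at -1.80, *Dnajc10* at 1.34 and *Camlg* at 1.04, and each list is centred near 0.

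Plasma cells and other secretory cells have an expanded ER, so their markers were read beside the members. By the methods, LPMs for RNA-seq were sorted in 2 rounds, and the authors describe the result as an almost pure LPM population. In the study's flow cytometry, LPMs are F4/80-high, MHCII-low cells positive for CD11b and CD115 and negative for B220. Such a gate would leave out most of the other cell types listed here. Of 6 plasma cell markers in the table, 5 had at most 10 reads in any library, and *Tnfrsf17* was at 0 in 1 Rxra-KO library. *Irf4*, which macrophages and dendritic cells also express, was called higher, with 12 and 19 reads in WT against 41 and 58 in Rxra-KO (log2 fold change 1.54, limma adjusted *p* = 0.00756), a call that ended without either Rxra-KO library (adjusted *p* = 0.315 and 0.151). From its RNA-seq, the study names *Irf4* among genes typical of small peritoneal macrophages that were higher in RXR-deficient LPMs. The summed plasma cell value was 43.9 and 43.4 in WT against 93.3 and 75.5 in Rxra-KO, of which *Irf4* gave a mean of 20.04 in WT and 60.3 in Rxra-KO. Lists for B cells (8 genes), mast cells (7), mesothelial cells (6), neutrophils (4) and eosinophils (4) held 0 calls by limma, edgeR, DESeq2 and voom and 5 of 29 genes with a limma unadjusted *p* under 0.05 (17.2%, beside 10.1% of all genes). The T cell list held 1 call of 7, *Cd2*, and the dendritic cell list 1 of 9, *Cd209a*, both higher, and the macrophage list 2 of 9, *Itgam* and *Lyz2*, both lower. *Lyz2* is the locus that expresses Cre in the knockout mice, so its fall cannot be read as that of a cell marker. The call of *Cd209a* ended without the second Rxra-KO library (adjusted *p* = 0.0755), and that of *Lyz2* without either WT library (adjusted *p* = 0.202 and 0.0529). *Cd2*, with 0 reads in both WT libraries, was not called without either WT library (adjusted *p* = 0.0732 and 0.136) and was not tested without an Rxra-KO library. The summed dendritic cell value was 73.4 and 87.3 in WT against 126 and 171 in Rxra-KO, and that of T cells 114 and 94.9 against 114 and 82.9. The part of any of these in the member values was not tested.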

How the data were processed

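RNA of sorted LPMs was measured in 2 WT and 2 Rxra-KO libraries. Per the submitters' notes and the methods, the authors quantified transcripts with kallisto 0.43.0, summarised them to genes and used limma with TMM scaling. A human build, GRCh38, is named for these mouse libraries, so the reference was not settled. The authors deposited a normalised read signal, in which 0.5 was added to the reads before scaling by library size. Reads were recovered as whole numbers for 100% of values (within 0.01 read).

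Here log2(value + 1) was fitted with limma 3.58.1 (R 4.3.3, trended empirical Bayes, two-sided, Benjamini-Hochberg over 18364 genes, no covariate). Genes needed a value of 1 or more in 2 libraries, which removed none, so the alternative with no filter repeats the main fit. With 2 libraries a group an exact permutation test cannot go below p = 0.333. The adjusted p-values and the limma intervals therefore rest on spread shared across genes (227 prior against 2 residual degrees of freedom). Nothing in the labels says that libraries came from separate mice, so p-values measure the spread between these samples, which may be technical. SMART-Seq v4 reads carry no molecular identifiers, so exact intervals and floors (3 reads) cover counting error only. Recovered depth was 629030 to 1047021 reads a library.

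Members, pathway lists and marker lists were chosen with earlier results of these data known. All members are named, and of other lists the called genes and the most abundant one. Alternatives were other pseudocounts, filters and scalings, limma without trend, edgeR 4.0.16, DESeq2 1.42.0 and voom on recovered reads, a replicate block and leaving out each library. The fit was tested on simulated data. Lengths, 31-base words and exon overlaps came from GENCODE M21, promoters from RefSeq.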

Additional observations from a re-analysis of the deposited data

How the results depend on the processing

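Log2 fold changes of 23 of the 35 members with a fold kept their direction in all 15 alternatives, and none but *Derl1* was called in any. The 15 include the fit with no filter, which repeats the main fit and adds no separate check. *Derl1* was called in 13 of 15, with a log2 fold change from -2.06 to -1.54 and adjusted *p* from 8.94e-05 to 0.472 (edgeR 0.000284, DESeq2 0.0255, voom 0.00131). Members called lower were 0 by limma without trend, where *Derl1* had an unadjusted *p* = 0.00554, and 0 to 1 when a library was left out, with 0 without Rxra-KO replicate 1. The cause was not tested. Genes called over all 18364 were 0 by limma without trend (0 higher, 0 lower, 1579 with an unadjusted *p* under 0.05, and 446 by edgeR), and 235 by DESeq2 (128 higher, 107 lower). They were 167 to 381 when a library was left out (92 to 227 higher, 71 to 160 lower), with 240 without WT replicate 2 and 167 without Rxra-KO replicate 1. Pathway genes called higher were 1 with a filter at a value of 10 in 2 libraries, 0 by limma without trend, 1 by edgeR, 0 by DESeq2, 1 by voom and 0 to 1 when a library was left out. Pathway genes called lower were 1, *Ssr4*, with median-of-ratios scaling and with the replicate block. The translocon median was -0.14 by DESeq2 and -0.0089 to 0.067 when a library was left out.

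A single reversal came from a setting other than leaving out a library, *Creld2* at 0.014 by voom. When a library was left out, the log2 fold changes that turned direction ranged from -0.062 to 0.13 for *Hsp90b1*, -0.19 to 0.050 for *Canx*, -0.53 to 0.073 for *Dnajb9*, -0.20 to 0.33 for *Dnajb11*, -0.50 to 0.50 for *Creld2*, -0.37 to 0.048 for *Xbp1*, -0.025 to 0.51 for *Atf6*, -1.59 to 0.21 for *Atf4*, -0.070 to 0.36 for *Herpud1*, -0.28 to 0.094 for *Sec61a1*, -0.64 to 0.53 for *Sec61g* and -0.42 to 0.041 for *Ssr1*.

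The titles number replicates 1 and 2 in both groups. Deviations of same-numbered libraries from their group means had a correlation of 0.063 over 10049 genes, from 2 pairs, which does not show a pairing. A fit with the replicate block called 540 genes and, among the members, *Derl1* (adjusted *p* = 8.94e-05). Depth limits the 7 members with a mean under 10 reads, for which only 0.147% of all genes of that depth were called.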
